A study of Mus musculus with 30 samples.

Results

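The genes described here are 34 mouse genes of cell division, 13 that act in S phase, when DNA is copied, and 21 that act in mitosis, when the copies are parted. They were taken as named rows of the gene table, by matching Ensembl identifiers to gene symbols, out of 55487 gene identifiers counted in whole colon. The samples were 30 colons, 5 of each of 6 genotypes, with one library a mouse made by the Lexogen QuantSeq 3′ FWD method, which reads a short stretch at the 3′ end of each transcript. The genotypes were XBP1IEC-KO;Casp8IEC-KO;TNFR1IEC-KO (here the TNFR1 triple knockout), XBP1IEC-KO;Casp8IEC-KO;MLKLKO (the MLKL triple knockout, written as Mlkl-/- in the design text), XBP1IEC-KO;Casp8IEC-KO (the double knockout), XBP1IEC-KO (the Xbp1 knockout), Casp8IEC-KO (the Casp8 knockout) and WT. IEC is the usual short form for intestinal epithelial cell. The labels name no Cre driver, age, sex or housing, and both triple knockouts carry the Xbp1 and Casp8 deletions that the double knockout carries.

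Cells copy their DNA once per division. During G1 a ring of 6 MCM proteins is loaded at each replication origin by Cdc6 and Cdt1, and in S phase the ring unwinds DNA while PCNA clamps the polymerases to it and ribonucleotide reductase and thymidylate synthase supply nucleotides. Genes of this first set are switched on mainly by E2F factors once RB lets go of them, whereas genes of mitosis are switched on later, in G2, through elements called CHR and CCAAT boxes read by the DREAM and MMB complexes and NF-Y. In the colon, division takes place mainly in the lower crypt, among stem cells and their daughters, and in whichever immune or stromal cells divide. Xbp1 is a transcription factor of the response to unfolded protein, caspase-8 launches apoptosis and holds back necroptosis, a lytic form of cell death that MLKL executes, and TNFR1 is a receptor through which TNF can trigger either.

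Libraries held 3516792.6 to 5823059.7 counted reads, so 1 read was worth about 0.232 CPM, the counts of a gene scaled to a library's total. Levels below are CPM scaled by the TMM method of edgeR, which sets libraries to a shared scale, and fold changes are log2 values with standard errors (SE) from one edgeR quasi-likelihood fit over all 30 libraries. A gene is said to have risen or fallen only when its p, adjusted by the Benjamini-Hochberg method over 15458 genes, was under 0.05. All 34 genes passed the filter on low counts. Casp8 lay at 21.99 to 46.3 CPM in the double knockout, against 51.5 to 58.7 CPM in WT, whereas Xbp1 tags lay at 70.4 to 139.5 CPM in the double knockout, against 52.8 to 100.1 CPM in WT. Tnfrsf1a, which encodes TNFR1, lay at 52.4 to 75.4 CPM in the TNFR1 triple knockout, against 74.5 to 112.5 CPM in the double knockout and 65.0 to 78.9 CPM in WT, so it overlapped WT. Which part of each gene was deleted is not in the labels, and a 3′ tag outside it would not report the deletion. Of 3 libraries that need care, the library labelled Xbp1 knockout replicate 2 had 21.1 CPM of Casp8, against 45.0 to 66.8 CPM in the other Xbp1 knockout libraries. The library labelled MLKL triple knockout replicate 5 had 10.7 CPM of Mlkl, against 1.30 to 4.38 CPM in the other libraries of its group. WT libraries had 5.72 to 9.89 CPM of Mlkl, so that library was above all of them. Double knockout replicate 1 had 10.3% of its reads on mitochondrial genes, against 13.3% to 22.9% in the other 29 libraries. Read from Xist and Y-linked genes, females numbered 4 of 5 TNFR1 triple, 5 of 5 MLKL triple, 1 of 5 double, 3 of 5 Xbp1 and 3 of 5 Casp8 knockout mice and 1 of 5 WT mice.

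The promoters of the S phase and mitosis genes held different motifs. RefSeq windows from 250 bases before to 50 bases after the gene's start (build GRCm38.p6) were found for 28 of the 34 genes, 11 of S phase and 17 of mitosis. They were searched on both strands for E2F sites (TTTCCCGC, TTTCGCGC, TTTGCCGC or TTTGGCGC), CHR elements (TTTGAA or TTCGAA) and CCAAT boxes (CCAAT), with overlapping matches counted apart. An E2F site was found in 6 of 11 S phase promoters (54.5%), in 1 of 17 mitosis promoters (5.88%) and in 2.26% of all 32851 promoters. Each of the 28 genes was given 1 window, whereas the 32851 were not cut down to 1 a gene. A CHR element was found in 2 of 11 S phase promoters (18.2%), in 14 of 17 mitosis promoters (82.4%) and in 19.2% of all promoters. All 14 mitosis promoters with a CHR element also held a CCAAT box, a pair seen in 7.52% of all promoters. CCAAT boxes alone were found in 8 of 11 S phase promoters (72.7%), 15 of 17 mitosis promoters (88.2%) and 37.4% of all promoters. The S phase promoters with an E2F match were those of Mcm3, Mcm5, Mcm6, Mcm7, Cdc6 and Cdt1; that of Mcm3 had its matches at positions 20 and 39 after the start. The promoters of Pcna, Rrm1, Rrm2, Tyms and Mcm2 held none of these 4 spellings, and those of Nusap1, Birc5 and Ccnb1 held no CHR spelling. A match is only a run of letters and was not tested for binding.

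Below are the 250 bases before the start of 4 genes, 2 of S phase with paired E2F matches and 2 of mitosis that carry several CHR and CCAAT matches, read 5′ to 3′ along the gene's strand, with every match of the 3 motifs in capitals. Mcm6 and Mcm5 encode subunits of the MCM ring, and in each the leftmost capitals are 2 overlapping E2F matches. Mki67 encodes the Ki-67 protein that coats mitotic chromosomes, and Top2a the topoisomerase that untangles them. They lie at chr1:128359706-128359955 (minus strand), chr8:75109259-75109508 (plus), chr7:135716380-135716629 (minus) and chr11:99024190-99024439 (minus).
Mcm6: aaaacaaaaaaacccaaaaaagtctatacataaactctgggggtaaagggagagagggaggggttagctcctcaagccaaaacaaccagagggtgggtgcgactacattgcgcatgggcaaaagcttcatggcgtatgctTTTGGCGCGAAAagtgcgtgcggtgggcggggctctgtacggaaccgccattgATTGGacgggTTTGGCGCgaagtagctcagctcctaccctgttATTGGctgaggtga
Mcm5: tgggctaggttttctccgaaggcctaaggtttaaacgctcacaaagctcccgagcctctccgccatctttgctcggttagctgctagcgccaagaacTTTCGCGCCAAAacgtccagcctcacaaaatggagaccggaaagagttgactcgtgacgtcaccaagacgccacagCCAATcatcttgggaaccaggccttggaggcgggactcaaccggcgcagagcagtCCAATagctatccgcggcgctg
Mki67: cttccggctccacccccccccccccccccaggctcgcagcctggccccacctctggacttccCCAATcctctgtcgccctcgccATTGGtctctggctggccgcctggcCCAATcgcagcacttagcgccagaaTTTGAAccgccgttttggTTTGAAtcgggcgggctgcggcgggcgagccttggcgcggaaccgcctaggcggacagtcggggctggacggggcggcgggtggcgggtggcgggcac
Top2a: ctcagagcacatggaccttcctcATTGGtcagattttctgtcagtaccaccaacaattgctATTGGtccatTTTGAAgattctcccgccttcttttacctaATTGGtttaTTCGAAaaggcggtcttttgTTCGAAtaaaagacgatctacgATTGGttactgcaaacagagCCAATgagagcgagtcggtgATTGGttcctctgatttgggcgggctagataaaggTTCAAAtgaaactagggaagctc

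**Figure D1:**
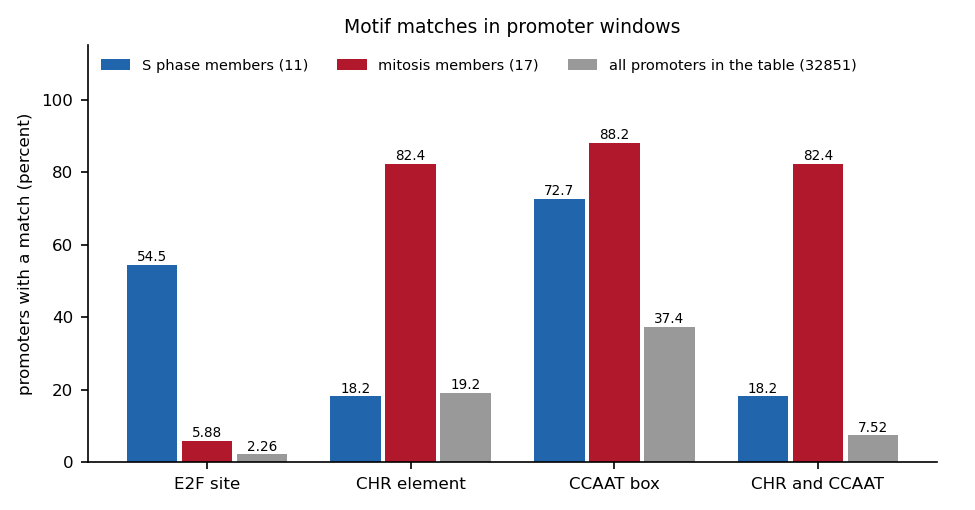
Percent of promoter windows of 300 bases with at least one match to E2F, CHR or CCAAT letters, or to both CHR and CCAAT, for 11 S phase genes, 17 mitosis genes and all 32851 promoters (bars, from 0). E2F matches stand at 54.5% of S phase promoters and 5.88% of mitosis promoters, and CHR matches at 18.2% and 82.4%.

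Against WT, the double knockout had more S phase transcripts and no called change of mitosis transcripts. Of the 13 S phase genes, 5 rose (Mcm3, Pcna, Mcm6, Rrm2 and Mcm4) and none fell, where 11.1% of all genes tested rose. All 13 had a positive fold change, with a median of 0.55 on the log2 scale, against 0.0064 over all genes tested. Of the 21 mitosis genes, 0 were called in either direction by edgeR, where 10.2% of all genes tested fell; 2 had an unadjusted p under 0.05, and DESeq2 also called none. Their fold changes ran between -0.57 and 0.43 with a median of -0.04, and 9 of 21 were positive. That median had no settled sign, being above 0 in 5 of 19 alternative fits. Sexes were matched here, with 1 female of 5 in each group.

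Summed over the 13 S phase genes, double knockout libraries held 339, 387, 456, 453 and 350 CPM, and WT libraries held 285, 301.5, 290.4, 286 and 260.4 CPM. The groups did not overlap, and WT libraries were close together. Taken gene by gene, 7 of the 13 S phase genes (the 5 called, Mcm2 and Cdt1) and 0 of the 21 mitosis genes had groups that did not overlap. Of all genes tested, 6.55% lay higher and 6.66% lower in the double knockout without overlap. Summed over the 21 mitosis genes, double knockout libraries held 479, 958, 1285, 965 and 541 CPM, and WT libraries 868, 1169.5, 854, 1193 and 609 CPM. Here the groups overlapped throughout, and double knockout replicates 1 and 5 were the lowest of all 30 libraries. The mitosis sum was 208% ± 59.9 of the S phase sum in double knockout colons, against 327% ± 74.1 in WT colons (SD, n = 5 each). These percents overlapped, at 141% to 282% in the double knockout and 234% to 417% in WT.

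**Figure D2:**
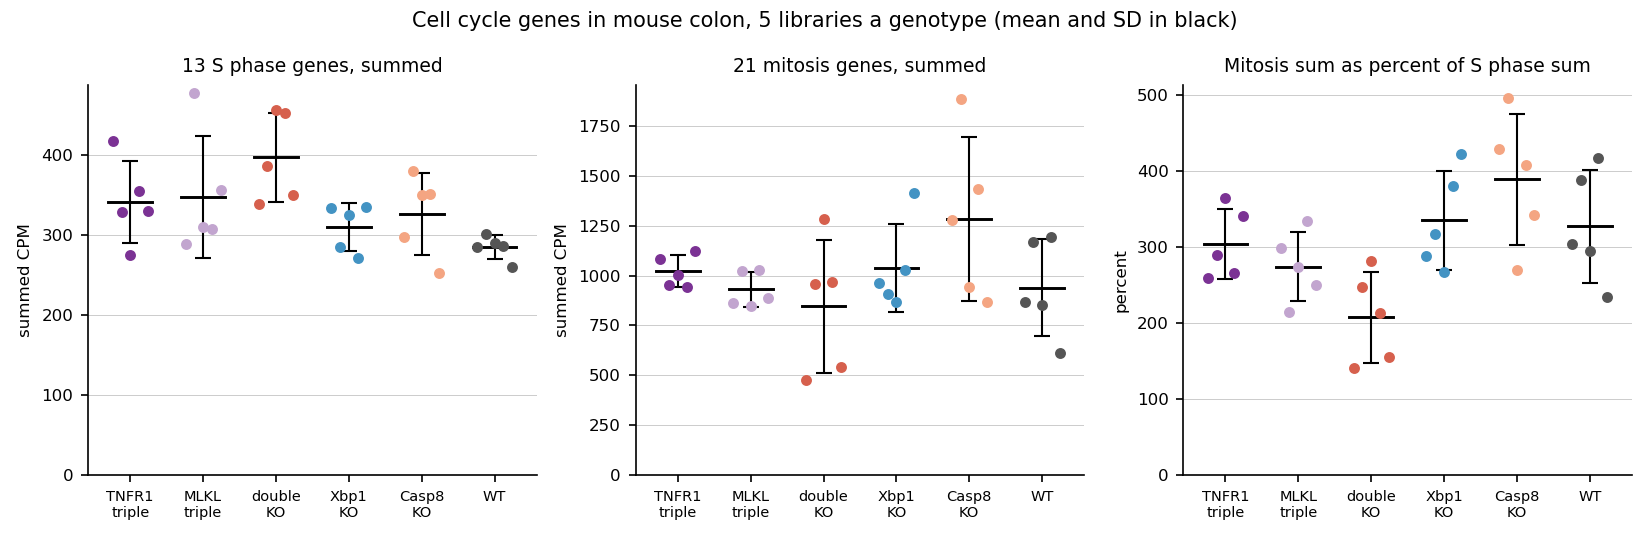
Summed CPM of the 13 S phase genes (left), of the 21 mitosis genes (middle) and the mitosis sum as a percent of the S phase sum (right) in each of 30 libraries; points are libraries, black lines the mean and SD of 5. Double knockout libraries hold 339 to 456 CPM of S phase genes, above the 260.4 to 301.5 CPM of WT, while mitosis sums overlap.

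Among the MCM genes, Mcm3 changed most clearly. Mcm3 (ENSMUSG00000041859, chr1:20802968-20820312, minus strand) had 42.8, 50.6, 54.6, 62.6 and 45.8 CPM in double knockout libraries, against 31.0, 27.5, 26.9, 33.3 and 31.7 CPM in WT. Every double knockout library was above every WT library, and the fold change was 0.77 ± 0.165 (SE; adjusted p = 0.00123). Mcm6 had 35.8, 36.1, 43.8, 40.6 and 29.6 CPM in the double knockout and 28.8, 22.8, 23.9, 24 and 27.8 CPM in WT. Its groups also stood apart, though by little between the lowest double knockout and the highest WT library, and it rose by 0.55 ± 0.169 (adjusted p = 0.0197). Mcm4 had 17.98, 23.8, 25.1, 23 and 20.5 CPM in the double knockout and 16.7, 15.4, 16.6, 13.8 and 6.24 CPM in WT. WT replicate 5 was far below the rest, and the fold change was 0.67 ± 0.227 (adjusted p = 0.0321). The other MCM genes missed the threshold, with log2 differences of 0.52 ± 0.211 for Mcm2 (adjusted p = 0.0740), 0.56 ± 0.212 for Mcm5 (0.0573) and 0.40 ± 0.221 for Mcm7 (0.195).

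Mcm7 was the most abundant S phase gene by 3′ tags, which are counted per transcript whatever its length, and its libraries were uneven. It had 37.3, 62.7, 90.9, 85.8 and 58.8 CPM in the double knockout and 47.1, 58.8, 52.0, 54.1 and 40.8 CPM in WT. Replicates 3 and 4 of the double knockout were high, whereas replicate 1 was under every WT library. The last 500 bases of Mcm7 overlap those of Cops6 on the other strand, and the strand setting of the counting is not given in the sources used here, so part of its reads may belong to that gene. The ends of Gins2, Ube2c, Ccna2, Cdc20 and Kif20a likewise overlap a gene on the other strand. The end of Cdt1 overlaps Gm20388 on its own strand, where no strand setting would part the reads.

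Among the partners of the ring, Pcna rose. Pcna (ENSMUSG00000027342, chr2:132249162-132253314, minus strand), the sliding clamp, had 19.5, 21.5, 20.5, 24.7 and 22.6 CPM in the double knockout and 11.2, 15.4, 14.02, 16.1 and 9.62 CPM in WT. The groups stood apart, and the fold change was 0.71 ± 0.181 (adjusted p = 0.00549). Cdt1, which loads the ring, had 27.6, 25.1, 24.7, 26.5 and 25.97 CPM in the double knockout and 20.03, 19.4, 19.3, 19.6 and 19.5 CPM in WT. The groups were tight and did not overlap, yet the gene was not called, at a log2 difference of 0.41 ± 0.155 (adjusted p = 0.0569). The fit takes its estimate of spread from all 6 groups. Cdc6, the other loader, was low at 5.66 ± 1.41 CPM in the double knockout and 3.81 ± 1.27 CPM in WT (SD, n = 5 each), a log2 difference of 0.56 ± 0.334 (adjusted p = 0.243). Gins2, a part of the helicase that forms around the ring, stood at 25 ± 4.34 CPM in the double knockout and 24.5 ± 1.87 CPM in WT, a log2 difference of 0.03 ± 0.138.

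Of the nucleotide enzymes, Rrm2, the subunit of ribonucleotide reductase made mainly in S phase, had the largest log2 fold change of the 34 genes. It had 11.1, 16.9, 14.3, 17.3 and 10.7 CPM in the double knockout and 8.80, 7.11, 7.59, 7.69 and 4.42 CPM in WT. All 5 double knockout libraries were above all WT libraries, and Rrm2 rose by 0.97 ± 0.309 (adjusted p = 0.0239). Its partner subunit Rrm1 stood at 51.0 ± 10.7 CPM in the double knockout and 39.3 ± 6.65 CPM in WT, a log2 difference of 0.37 ± 0.175 (adjusted p = 0.128). Thymidylate synthase, Tyms, stood at 26.6 ± 3.61 CPM in the double knockout and 23.6 ± 2.60 CPM in WT, a log2 difference of 0.18 ± 0.133 (adjusted p = 0.357).

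The calls of Mcm3 and Pcna held when any single double knockout or WT library was left out. Mcm6 was no longer called without double knockout replicate 3 or 4 or WT replicate 2 (adjusted p 0.0508 to 0.0511), Rrm2 without double knockout replicate 2 or 4 or WT replicate 5 (0.0536 to 0.0650), and Mcm4 without double knockout replicate 2, 3 or 4 or WT replicate 4 or 5 (0.0555 to 0.0978). Without double knockout replicate 4 the count of called genes fell to 2, and without the 3 libraries that need care it stayed at 5.

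The mitosis genes overlapped in every case between the double knockout and WT. Cenpf (ENSMUSG00000026605, chr1:189640606-189688086, minus strand), a large protein of the kinetochore, where chromosomes meet the spindle, had 39.2, 104, 129, 68.3 and 49.7 CPM in the double knockout and 110.3, 144, 98.6, 139 and 84.0 CPM in WT. Replicates 1, 4 and 5 of the double knockout were under every WT library and replicates 2 and 3 were not, and the log2 difference was -0.57 ± 0.224 (adjusted p = 0.0692). Nusap1 (ENSMUSG00000027306, chr2:119618298-119651244, plus strand), which bundles spindle microtubules, had 19.3, 40.7, 60.8, 38.8 and 22.8 CPM in the double knockout and 49.1, 69.7, 49.9, 65.0 and 30.4 CPM in WT. Replicates 1 and 5 were again the low ones, with a log2 difference of -0.54 ± 0.262 (adjusted p = 0.141). Mki67 had 35.5, 135, 188, 136 and 77.2 CPM in the double knockout and 133, 165, 109, 178 and 81.7 CPM in WT. Its highest and lowest values in these groups were both double knockout libraries, and its log2 difference was -0.23 ± 0.258 (adjusted p = 0.576). Top2a, the mitosis gene with the most tags, had 94.99, 203, 327, 294 and 142 CPM in the double knockout and 194, 275, 201, 295 and 137 CPM in WT, a log2 difference of -0.06 ± 0.243 (adjusted p = 0.901).

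The remaining mitosis genes fall into a few working parts, and none was called. The engine of mitotic entry, Cdk1 with its cyclins, gave log2 differences of -0.0025 ± 0.263 for Cdk1, 0.21 ± 0.204 for Ccna2, -0.24 ± 0.247 for Ccnb1 and -0.37 ± 0.246 for Ccnb2. The mitotic kinases gave -0.28 ± 0.257 for Plk1, 0.02 ± 0.266 for Aurka and 0.43 ± 0.386 for Aurkb, with 0.04 ± 0.245 for Tpx2, the activator of Aurora A, and -0.04 ± 0.224 for Birc5, which works with Aurora B. The checkpoint kinases Bub1 and Bub1b stood at 0.27 ± 0.369 and 0.11 ± 0.296, and Cdc20 and Ube2c, which help to tag mitotic proteins for destruction, at 0.05 ± 0.205 and -0.16 ± 0.272. The motor proteins Kif11, Kif20a and Kif23 gave 0.01 ± 0.321, -0.35 ± 0.177 and 0.03 ± 0.197, and Cenpa, the histone of the centromere, -0.21 ± 0.272. All 21 mitosis genes had a larger standard error than the 0.169 of Mcm6, yet the lists overlapped. That of Kif20a was smaller than those of Mcm2, Mcm4, Mcm5, Mcm7, Pcna, Rrm2 and Cdc6.

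**Figure D3:**
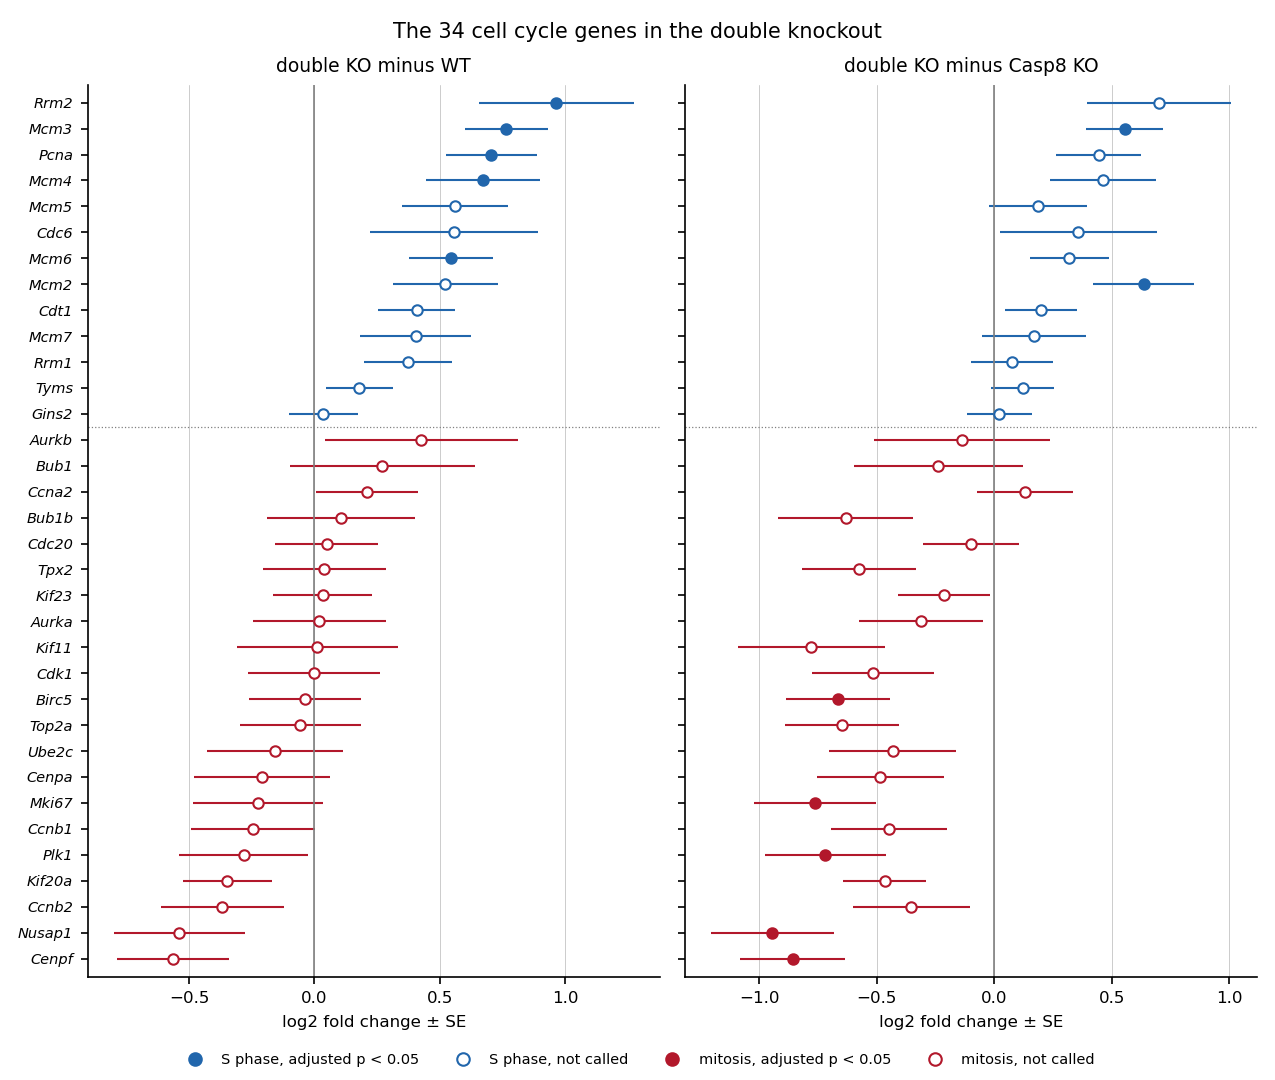
Log2 fold change with SE of each of the 34 genes, double knockout minus WT (left) and double knockout minus Casp8 knockout (right); blue is S phase, red is mitosis, and filled points have an adjusted p under 0.05. On the left 5 S phase genes and no mitosis gene are filled, and on the right 2 S phase genes to the right of 0 and 5 mitosis genes to the left of it.

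Pooled over the 6 genotypes, the mitosis genes also varied more between mice of one genotype than the S phase genes did. The SD of log2 CPM within genotypes had a median of 0.44 over the 21 mitosis genes, between 0.27 in Kif20a and 0.65 in Aurkb, and of 0.30 over the 13 S phase genes, between 0.20 in Tyms and 0.55 in Cdc6; the 2 lists also differ in depth per gene, whose part was not tested. For the mean log2 CPM of each list, the triple knockouts had the reverse order. Its SD was 0.097 for mitosis and 0.228 for S phase genes in the TNFR1 triple knockout. In the MLKL triple knockout it was 0.137 and 0.316. In the double knockout, the single knockouts and WT the mitosis genes moved together from mouse to mouse. Xbp1 knockout replicate 5 was the highest of its 5 libraries for 21 of 21 mitosis genes, Casp8 knockout replicate 2 for 20 of 21 and double knockout replicate 3 for 17 of 21, while WT replicate 5 was the lowest for 19 of 21. For S phase genes the counts for the same libraries were 3, 6 and 7 of 13 highest, and WT replicate 5 was lowest for 7 of 13. In the triple knockouts the mitosis genes shared no such library. TNFR1 triple replicate 1 and MLKL triple replicate 4 led most often, each for 8 of 21. TNFR1 triple replicate 1 and MLKL triple replicate 2 were each the highest for 10 of 13 S phase genes. Double knockout replicate 1 was the lowest of its group for 13 of 21 mitosis genes and replicate 5 for the other 8.

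**Figure D4:**
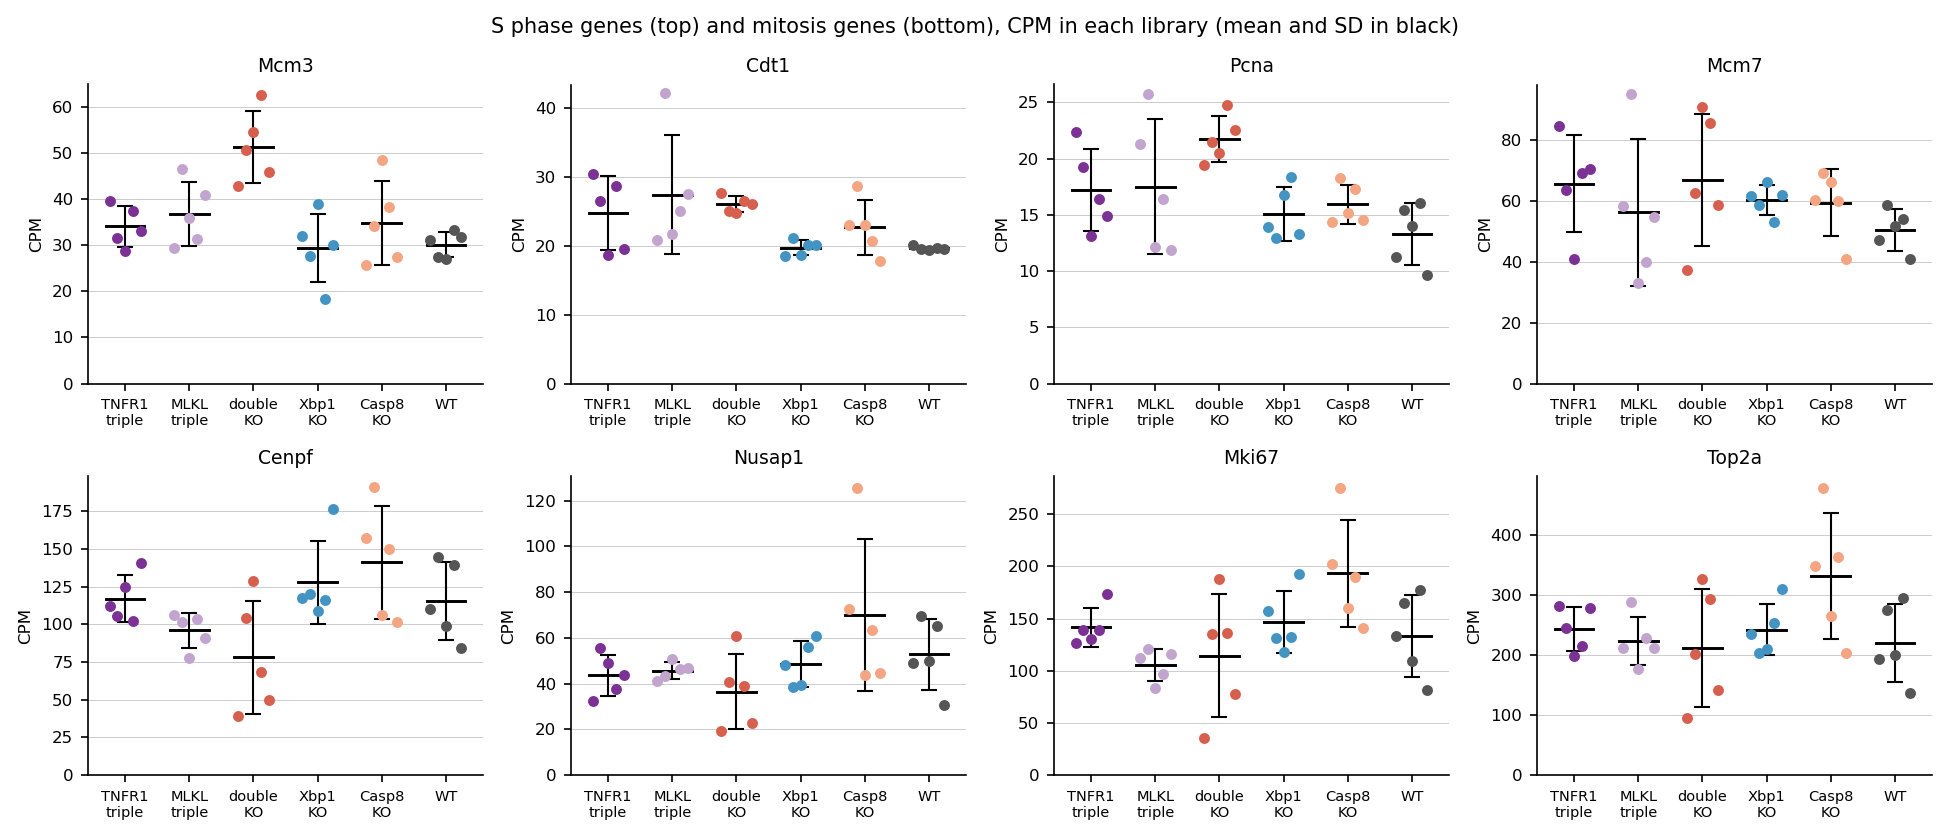
CPM in each of 30 libraries of 4 S phase genes (top) and 4 mitosis genes (bottom), with black lines for the mean and SD of 5. Mcm3 and Pcna lie higher in all 5 double knockout libraries than in any WT library, while the mitosis genes spread widely within the double knockout and the Casp8 knockout.

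In the single knockouts no cell cycle gene was called against WT. In the Xbp1 knockout edgeR called 0 of 34, where 0.0841% of all genes were called, with 1 S phase and 1 mitosis gene at an unadjusted p under 0.05, and DESeq2 also called 0. The S phase median was 0.13 and the mitosis median 0.15. In the Casp8 knockout edgeR called 0 of 34, where 1.17% of all genes were called, with 6 mitosis genes at an unadjusted p under 0.05, and DESeq2 also called 0. There the S phase median was 0.21 and the mitosis median 0.40, with 20 of 21 mitosis genes positive, of which Birc5 had the smallest p, at 0.63 ± 0.223 (adjusted p = 0.159), and Kif11 the largest fold change, at 0.79 ± 0.314 (0.217). Without Casp8 knockout replicate 2 the mitosis median was 0.15.

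Mouse by mouse, the single knockouts had the following levels. Mcm3 had 31.9, 27.6, 38.9, 18.4 and 29.95 CPM in Xbp1 knockout mice, and 25.6, 34.1, 48.4, 38.2 and 27.4 CPM in Casp8 knockout mice. Pcna had 13.9, 12.98, 16.8, 18.4 and 13.3 CPM in Xbp1 knockout mice, and 14.4, 18.2, 15.2, 17.3 and 14.5 CPM in Casp8 knockout mice. Cdt1 had 18.5, 21.1, 18.6, 20.02 and 20.1 CPM in Xbp1 knockout mice, and 23.03, 28.7, 23.01, 20.6 and 17.8 CPM in Casp8 knockout mice. These 3 genes overlapped WT in both genotypes, as did Mcm7, at 61.7, 58.6, 66.3, 53.2 and 62.2 CPM in Xbp1 knockout mice, and 60.5, 69.3, 66.4, 60.1 and 41.1 CPM in Casp8 knockout mice. Of the mitosis genes, Cenpf had 118, 120.3, 109, 116 and 177 CPM in Xbp1 knockout mice, and 157.5, 191, 106, 150.1 and 102 CPM in Casp8 knockout mice. Mki67 had 158, 131, 118, 132 and 193 CPM in Xbp1 knockout mice, and 202, 275, 159.9, 190.1 and 141 CPM in Casp8 knockout mice. Replicate 2 was the highest Casp8 knockout library for both genes, and replicate 5 the highest Xbp1 knockout library. Nusap1 had 48.2, 38.5, 39.4, 56.1 and 60.8 CPM in Xbp1 knockout mice, and 72.5, 126, 43.6, 63.6 and 44.7 CPM in Casp8 knockout mice. Top2a had 235, 203, 211, 253 and 309.5 CPM in Xbp1 knockout mice, and 348, 479.5, 265, 364 and 204 CPM in Casp8 knockout mice. The same replicates led again, and in the Casp8 knockout replicates 3 and 5 were the low ones for Nusap1 and Top2a.

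Against the Casp8 knockout, the double knockout had fewer of several mitosis transcripts, while the count of S phase genes that rose was near the share of all genes. Of the 13 S phase genes 2 rose, Mcm3 by 0.55 ± 0.164 (adjusted p = 0.0175) and Mcm2 by 0.64 ± 0.214 (0.0355), where 9.68% of all genes tested rose. Of the 21 mitosis genes 5 fell, where 8.71% of all genes fell: Cenpf at -0.86 ± 0.224 (adjusted p = 0.00800), Nusap1 at -0.94 ± 0.262 (0.0117), Birc5 at -0.66 ± 0.222 (0.0346), Mki67 at -0.76 ± 0.258 (0.0369) and Plk1 at -0.72 ± 0.256 (0.0475). In all, 20 of 21 mitosis genes were negative with a median of -0.48, and 13 of 13 S phase genes positive with a median of 0.32, against 0.0064 over all genes. Groups did not overlap for 0 of 21 mitosis genes and for 1 of 13 S phase genes, Pcna, which was higher in the double knockout but not called; of all genes tested, 4.34% lay higher and 4.31% lower without overlap. Mcm2, a subunit of the ring, had 21.1, 27.4, 25.5, 25.7 and 21.2 CPM in the double knockout and 8.64, 13.8, 19.7, 22.9 and 12.1 CPM in the Casp8 knockout. Only Casp8 knockout replicate 4 reached the range of the double knockout. Against the 17.2, 16.4, 19.5, 11.9 and 18.99 CPM of WT the double knockout libraries of Mcm2 stood apart. Birc5, an inhibitor of apoptosis and partner of Aurora B, had 34.3, 63.2, 88.5, 66.5 and 34.4 CPM in the double knockout and 83.8, 131, 74.2, 100.2 and 64.4 CPM in the Casp8 knockout. Plk1, a kinase that drives cells through mitosis, had 18.97, 30.2, 52.2, 28.2 and 21.2 CPM in the double knockout and 44.3, 74.5, 30.8, 65.1 and 33.2 CPM in the Casp8 knockout. For both, double knockout replicate 3 was above Casp8 knockout replicates 1, 3 and 5. For Plk1 the other double knockout libraries were under every Casp8 knockout library. For Birc5 so were all but double knockout replicate 4, which was above Casp8 knockout replicate 5. Cell type markers moved with this contrast too. Pan epithelial sums were 9858 to 12060 CPM in the double knockout and 7678 to 9694 CPM in the Casp8 knockout, and monocyte and macrophage sums 359.6 to 809 CPM in the double knockout and 255 to 345 CPM in the Casp8 knockout, both without overlap. Of 10 smooth muscle genes 9 fell, with overlapping sums of 3669 to 5851 CPM in the double knockout and 5523 to 9546 CPM in the Casp8 knockout. Their part in the result was not tested.

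This contrast rested on few libraries. The count of 7 called genes was 2 without Casp8 knockout replicate 2, 3 without replicate 1, 4 without double knockout replicate 1 or 5, and 12 without double knockout replicate 3. It was 1, Mcm3, when only these 2 groups were fitted, where Cenpf had an adjusted p of 0.0580, and 2 without the 3 libraries that need care. With sex as a term, females being 1 of 5 double and 3 of 5 Casp8 knockout mice, Mki67 (adjusted p = 0.0504) and Plk1 (0.0681) were not called, and with limma voom Birc5 (0.0694) and Plk1 (0.125) were not. Cenpf stayed called whichever single library was left out of the fit over all groups, and Nusap1 in all but the fit without Casp8 knockout replicate 2 (adjusted p = 0.0779). Mcm3 was not called without Casp8 knockout replicate 1 or 5 or double knockout replicate 4 (0.0601 to 0.0681), nor Mki67 without Casp8 knockout replicate 1 or 2 or double knockout replicate 1 or 5 (0.0678 to 0.117). Birc5 was lost without Casp8 knockout replicate 2 or 4 or double knockout replicate 1 or 5 (0.0588 to 0.130). Mcm2 was lost in 6 of 10 such fits and Plk1 in 7 of 10.

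Against the Xbp1 knockout, 1 of the 13 S phase genes rose in the double knockout, where 4.77% of all genes rose. It was Mcm3, by 0.80 ± 0.165 (adjusted p = 0.00328), and its call held with any library left out. Of the 21 mitosis genes 2 fell, Cenpf at -0.72 ± 0.224 (adjusted p = 0.0417) and Kif20a, a motor of cell cleavage, at -0.56 ± 0.175 (0.0421), where 3.86% of all genes fell. On lists this short, both counts were near those shares. Kif20a had 8.502, 11.5, 15.9, 11.9 and 11.4 CPM in the double knockout and 15.6, 12.5, 17.6, 18.4 and 22.9 CPM in the Xbp1 knockout, with overlap. Median fold changes were 0.41 for S phase and -0.26 for mitosis genes. Groups did not overlap for 4 S phase genes, Mcm2, Mcm3, Pcna and Cdt1, all higher in the double knockout, and for 0 mitosis genes, where 3.2% of all genes tested lay higher and 2.96% lower without overlap. The call of Cenpf was lost without double knockout replicate 1, 4 or 5 or Xbp1 knockout replicate 1, 4 or 5 (0.0637 to 0.127), that of Kif20a in 8 of 10 such fits (0.0518 to 0.130), and both with sex as a term or without the 3 libraries that need care. Without double knockout replicate 1, 4 or 5 or Xbp1 knockout replicate 1 or 4, the count fell to 1. Without the library labelled Xbp1 knockout replicate 2 it stayed at 3. Marker sums did not overlap here for pan epithelium (9858 to 12060 CPM in the double knockout and 7733 to 9542 CPM in the Xbp1 knockout), smooth muscle (3669 to 5851 and 5931 to 9222 CPM) and plasma cells (2847 to 15450 and 752 to 2569 CPM), and their part in the result was not tested.

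The interaction asked whether the double knockout departed from the sum of the single knockout changes. By edgeR 0 of 34 genes were called, where 1.38% of all genes were; 9 mitosis and 2 S phase genes had an unadjusted p under 0.05, and DESeq2 called 2. All 21 mitosis genes had a negative interaction term, with a median of -0.68 against 0.0029 over all genes, and the smallest adjusted p was 0.0892 for Cenpf, at -1.01 ± 0.315. Bub1b, a checkpoint kinase, stood at -1.27 ± 0.407 (adjusted p = 0.0966). S phase genes had a median of 0.19. The count was 1 without double knockout replicate 2 and 2 without replicate 3.

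In the triple knockouts, the mean of the summed S phase levels lay between those of the double knockout and WT. Single genes did not all do so. Mean CPM was above the double knockout for Mcm4, Cdt1 and Tyms in the MLKL triple and for Rrm1 in the TNFR1 triple knockout. It was below WT for Cdc6 and Gins2 in the TNFR1 triple knockout. Females were 4 of 5 TNFR1 triple and 5 of 5 MLKL triple knockout mice, against 1 of 5 double knockout and 1 of 5 WT mice. Summed over the 13 S phase genes, the TNFR1 triple knockout held 417, 329, 275, 355 and 330.3 CPM and the MLKL triple knockout 289, 477, 309.5, 308 and 356 CPM. Both overlapped the double knockout, and in each 1 library (TNFR1 triple replicate 1, MLKL triple replicate 2) stood above the rest. Their mitosis sums were even, at 1021 ± 80.1 CPM in the TNFR1 triple and 930.5 ± 88.8 CPM in the MLKL triple knockout, against 846 ± 335 CPM in the double knockout (SD, n = 5 each).

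Against the double knockout, Mcm3 fell in the TNFR1 triple knockout by 0.59 ± 0.164 on the log2 scale (adjusted p = 0.0475), where 1.33% of all genes fell and 1.02% rose. It was the only one of the 34 called, and it held with sex as a term, females being 4 of 5 TNFR1 triple and 1 of 5 double knockout mice. Mcm3 had 39.6, 31.4, 28.6, 37.4 and 33.0 CPM in the TNFR1 triple knockout, all under the 42.8 to 62.6 CPM of the double knockout. The call did not hold when only these groups were fitted, or without double knockout replicate 1, 3, 4 or 5 or TNFR1 triple replicate 2, 3, 4 or 5 (adjusted p 0.0617 to 0.133), and 0 genes were called without the 3 libraries that need care. Medians were -0.31 for S phase and 0.26 for mitosis genes, of which 19 of 21 were positive. In the MLKL triple knockout Mcm3 had 29.3, 46.5, 35.8, 31.2 and 40.8 CPM, overlapping the double knockout, with a log2 difference of -0.48 ± 0.163 (adjusted p = 0.0677). Here edgeR called 0 of 34, where 7.65% of all genes were called, with 1 S phase and 2 mitosis genes at an unadjusted p under 0.05 and 1 called by DESeq2; medians were -0.18 and 0.20. With sex as a term, or without MLKL triple replicate 2, 1 gene was called, and without the library labelled MLKL triple replicate 5, none.

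Other S phase genes were more scattered in the triple knockouts. Pcna had 22.4, 19.2, 13.1, 16.4 and 14.9 CPM in the TNFR1 triple and 21.3, 25.8, 12.2, 16.4 and 11.9 CPM in the MLKL triple knockout. Cdt1 had 30.4, 26.5, 18.6, 28.6 and 19.5 CPM in the TNFR1 triple and 20.8, 42.1, 21.7, 24.9 and 27.4 CPM in the MLKL triple knockout. Mcm7 had 84.6, 63.8, 40.8, 69.2 and 70.6 CPM in the TNFR1 triple and 58.4, 95.3, 33.1, 40.0 and 54.9 CPM in the MLKL triple knockout. For all 3 genes the TNFR1 triple replicate 1 and the MLKL triple replicate 2 were the highest of their groups. Of the mitosis genes, Cenpf had 112, 106, 125, 102 and 141 CPM in the TNFR1 triple and 106, 101, 77.7, 104 and 90.8 CPM in the MLKL triple knockout. Mki67 had 127, 139, 131, 139 and 174 CPM in the TNFR1 triple and 112, 121, 83.8, 96.8 and 116 CPM in the MLKL triple knockout. Both genes spread less than in the double knockout. Nusap1 had 32.6, 55.4, 48.8, 37.8 and 43.7 CPM in the TNFR1 triple and 41.0, 43.5, 50.7, 46.5 and 46.6 CPM in the MLKL triple knockout. Top2a had 282, 245, 198, 215 and 278 CPM in the TNFR1 triple and 212, 288, 178, 228 and 213 CPM in the MLKL triple knockout. Both lay within the range of the double knockout.

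Set against WT, neither triple knockout had a called gene among the 34. In the TNFR1 triple knockout 2.12% of all genes were called, 4 S phase and 0 mitosis genes had an unadjusted p under 0.05, and medians were 0.18 for S phase and 0.13 for mitosis genes. In the MLKL triple knockout 0.854% of all genes were called, 4 S phase and 2 mitosis genes had an unadjusted p under 0.05, and medians were 0.34 and 0.10; DESeq2 called 0 in both, and without MLKL triple replicate 1 edgeR called 1. The nearest to a call was Cdt1 in the MLKL triple knockout, at 0.49 ± 0.155 (adjusted p = 0.117). These comparisons share the double knockout or WT libraries with those above. Across all 6 genotypes at once, Mcm3 alone was called (adjusted p = 0.00476), where 19.1% of all genes were; it held in every alternative run, while the count ran up to 7. Cenpf followed at 0.0510.

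Beyond the 34 genes, other genes of the same programmes were followed in the double knockout against WT, on lists chosen by function. Of 51 other replication genes 6 rose, a share near the 11.1% of all genes tested that rose, and 0 fell, with a median of 0.19: the chromatin remodeller Hells (27.9 ± 9.74 CPM in the double knockout and 15.4 ± 2.64 CPM in WT; 0.84 ± 0.253), the dUTP-clearing enzyme Dut (0.52 ± 0.170), the flap nuclease Fen1 (0.92 ± 0.304), and, named here because they were called, Mcm10, Dbf4 and Rpa1. Of 54 other mitosis genes tested 0 were called and 1 had an unadjusted p under 0.05, Ncapd2 of condensin at -0.37 ± 0.174 (adjusted p = 0.125), with a median of -0.08; Iqgap3 and Aspm followed at -0.49 ± 0.276 and -0.41 ± 0.253. Against the Casp8 knockout, 11 of these 54 fell, where 8.71% of all genes fell, and 0 rose, with a median of -0.45, among them, picked after their values were seen, the kinetochore motor Cenpe at -0.86 (adjusted p = 0.0149) and the spindle protein Aspm at -0.84 (0.0191).

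Short lists of regulators followed, to be read against the 11.1% of all genes that rose and the 10.2% that fell. Of 17 E2F, RB and DREAM genes tested 3 rose and 1 fell, which is near those shares: the E2F partner Tfdp1 stood at 22.4 ± 4.51 CPM in the double knockout and 12.5 ± 3.41 CPM in WT (0.83 ± 0.191, adjusted p = 0.00213), E2f1 at 10.7 ± 2.85 CPM and 6.57 ± 1.73 CPM (0.71 ± 0.230, 0.0266), E2f5, a repressor E2F, rose by 0.45 ± 0.148, and the RB relative Rbl2 fell by 0.40. Of 11 G1 cyclins and kinases, the kinase Cdk4, which phosphorylates RB, rose to 59.3 ± 3.72 CPM in the double knockout, against 39.6 ± 3.86 CPM in WT (0.58 ± 0.114, adjusted p = 0.000515). Myc, a transcription factor that drives entry to the cycle, rose by 1.51 ± 0.396 (0.00658) at low levels of 5.88 ± 3.75 CPM in the double knockout and 1.98 ± 0.911 CPM in WT. Cdk6 fell by 0.47 ± 0.115 (0.00358). Of 10 brakes tested 1 fell, which is near the share of all genes. It was Cdkn1b (p27), at 63.0 ± 16.9 CPM in the double knockout and 102 ± 21.2 CPM in WT (adjusted p = 0.00348). Btg2 and Cdkn2d had log2 differences of 0.38 ± 0.144 and -0.54 ± 0.254. The most abundant brake, Cdkn1a, was not called, at 699.3 ± 132.5 CPM in the double knockout and 579.9 ± 50.07 CPM in WT. Sums of the 11 brakes listed were 1032 ± 123.9 CPM in the double knockout and 927.5 ± 68.11 CPM in WT. Of 13 p53 target genes tested 4 rose and 0 fell, led by Plk2 (0.84 ± 0.204), Gadd45a (0.76 ± 0.191) and Bax (0.77 ± 0.204), while of 10 stem cell markers tested 1 fell, Tnfrsf19 (-0.86 ± 0.294), and Ascl2 and Ephb3 had log2 differences of -0.58 ± 0.218 and -0.33 ± 0.142 (adjusted p = 0.0558 and 0.0994).

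Whole colon is a mix of cells, and in it more dividing cells and more transcript per dividing cell cannot be told apart. Marker lists of several cell types moved with the S phase genes in the double knockout against WT. Of 10 pan epithelial genes 7 rose, with summed levels of 9858 to 12060 CPM in the double knockout and 7771 to 9223 CPM in WT. Of 10 smooth muscle genes 10 fell, with sums of 3669 to 5851 CPM in the double knockout and 8251 to 11230 CPM in WT, and of 10 fibroblast genes 7 fell, with sums of 1773 to 2586 CPM in the double knockout and 2573 to 3452 CPM in WT. Immune lists rose: 5 of 5 T and NK cell genes tested of 14 listed (16.6 to 70.7 CPM in the double knockout and 4.62 to 10.8 CPM in WT), 7 of 10 plasma cell genes (2847 to 15450 and 517 to 1657 CPM), 8 of 11 monocyte and macrophage genes (359.6 to 809 and 248 to 413 CPM), and 3 of 3 neutrophil genes tested of 8 listed (239.7 to 789 and 137 to 268 CPM). Of the T and NK list Gzmk was at 0 in all libraries of both groups, and of the neutrophil list Cxcr2, Mpo and Elane were at 0 in all 5 WT libraries. Most of the neutrophil sum was Ly6g, at a mean of 381.7 of 486.6 CPM in the double knockout and 201.6 of 202.9 CPM in WT. Of 8 B cell genes tested, germinal centre genes included, 0 were called and 0 had an unadjusted p under 0.05, with sums of 24.7 to 60.1 CPM in the double knockout and 22.4 to 68.5 CPM in WT. Erythroid precursor genes were at 15.3 to 204 CPM in the double knockout and 93.8 to 231 CPM in WT with 0 of 2 called, and of 8 endothelial genes 1 rose (149 to 223 and 144 to 176 CPM). Differentiated colonocyte genes went both ways (2 rose and 1 fell of 10; 3943 to 7517 and 5427 to 6733 CPM), as did goblet cell genes (2 rose and 4 fell of 10; 4430 to 8428 and 6713 to 9591 CPM). The part of these lists in the S phase result was not tested.

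**Figure D5:**
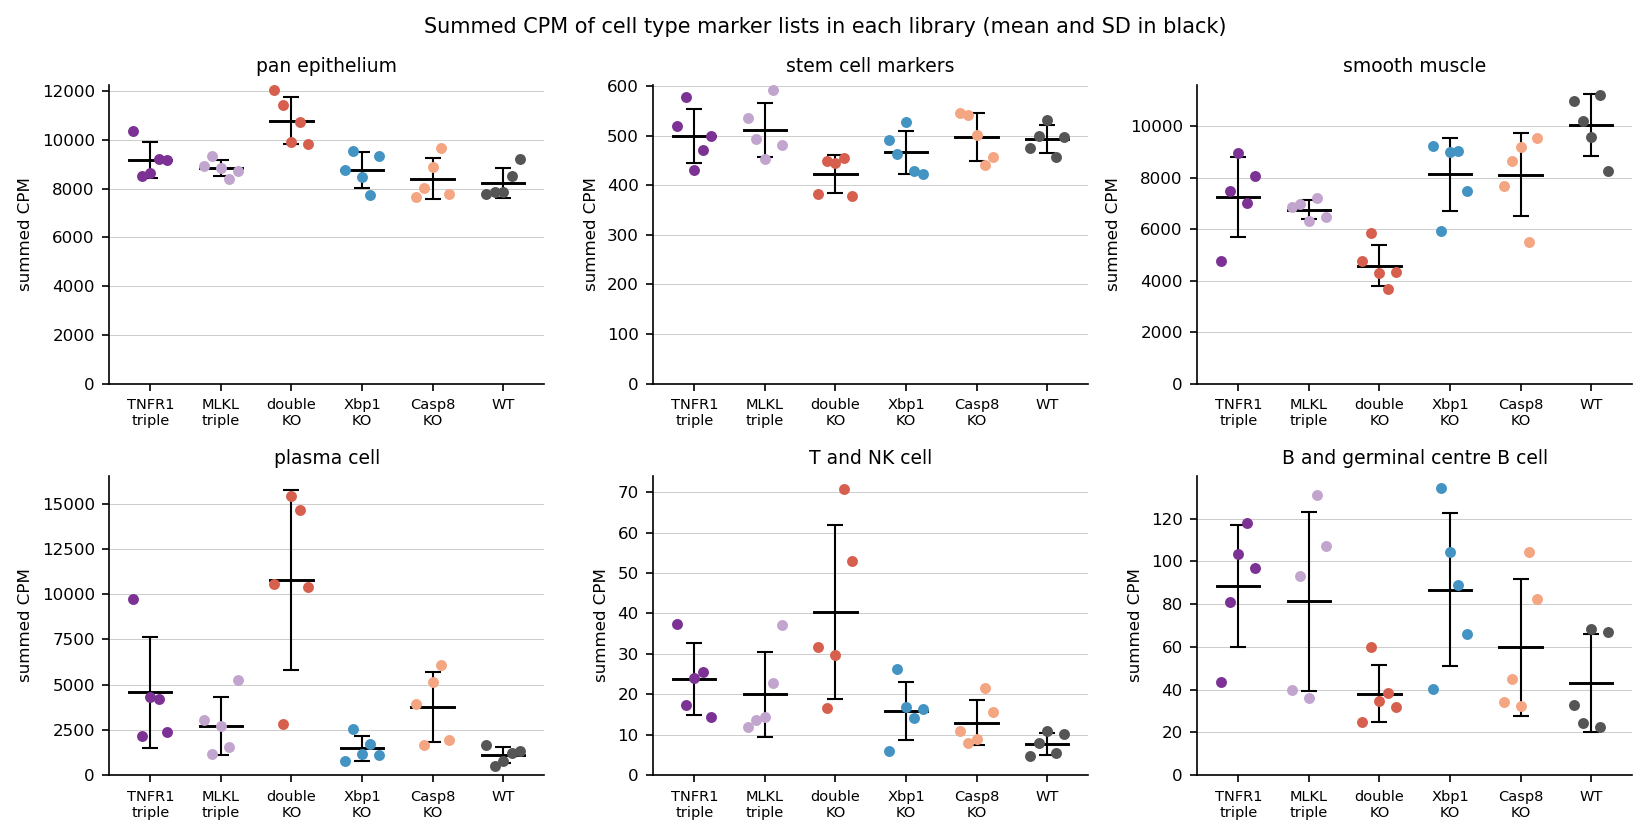
Summed CPM of 6 marker lists in each of 30 libraries, with black lines for the mean and SD of 5. Pan epithelial sums are higher and smooth muscle sums lower in all 5 double knockout libraries than in any WT library, plasma and T and NK cell sums are higher, and B cell sums overlap.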

How the data were processed

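RNA of 30 mouse colons was read by 3′ end sequencing and the authors deposited estimated counts per gene, with fractions in 11.2% of the values above 0. The tools named, per the submitters' processing notes, are featureCounts 2.01 with Subread, cutadapt 3.2 and R 4.0.0, on GRCm38; no settings or strand mode stand in the sources used here. Values were rounded, which changed no library total by more than 0.00321%. Gene symbols matched 55141 of 55487 identifiers. In R 4.3.3, edgeR 4.0.16 (filterByExpr, TMM, quasi-likelihood F test) kept 15458 genes (27.9%), with a common biological coefficient of variation of 0.186; replicates differed by at least 3.25 times counting noise. DESeq2 1.42.0 and limma 3.58.1 served as alternatives, and the steps were tested on simulated data.

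The 34 genes and all other lists were chosen with earlier results of these data known. Values in every library are given for the 3 S phase and 3 mitosis genes of smallest p across the 6 genotypes and the next most abundant of each. For other genes called in a comparison, library values are given for the groups compared and not for all 6 genotypes. Of other cell cycle lists the 3 genes of smallest p are named. The labels give one RNA sample for each mouse. Each SD covers the 5 mice of a group, whereas each SE comes from the fit over all 30 libraries, which shares its estimate of spread. Neither says anything of litter or cage. The replicate numbers did not pair the samples: deviations of same-numbered libraries correlated between -0.27 and 0.28.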

Additional observations from a re-analysis of the deposited data

Results flagged for a closer look

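Of 66 groups of 5 libraries tested over 11 measures, 2 had a library that stood apart from the other 4 by the gap to its nearest neighbour over the whole range (critical value 0.71), where chance gives about 1 in 20. Cenpf was at 176.9 CPM in Xbp1 knockout replicate 5, against 109.0 to 120.3 CPM in the other 4 Xbp1 knockout libraries (gap 0.834 of the range). That library was the highest of its group for all 21 mitosis genes. Mki67 was at 173.8 CPM in TNFR1 triple knockout replicate 5, against 126.7 to 138.9 CPM in the other 4 libraries of its group (gap 0.741 of the range). No explanation was tested for either.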

How the results depend on the processing

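Counts of called genes among the 34 are given here. In the double knockout against WT the count of 5 lay between 5 and 7 in the alternative fits (6 with a replicate block) and between 2 and 6 with 1 library left out; Mcm3 and Pcna were called in each. Against the Xbp1 knockout 3 genes became 1 without the 3 libraries that need care, a choice made after seeing the data, and 1 to 3 with 1 library left out. Against the Casp8 knockout 7 became 1 with only the groups compared and 2 without those 3 libraries, and 2 to 12 with 1 left out. The interaction had 0 and DESeq2 gave 2, with 0 to 2 when 1 library was left out. TNFR1 triple against double knockout had 1, which became 0 with only the groups compared, with the replicate block and without the 3 libraries, and 0 to 1 with 1 left out. MLKL triple against double knockout had 0, which became 1 with a sex term and with DESeq2, and 0 to 1 with 1 left out; MLKL triple against WT ran from 0 to 1. Across all genotypes the count of 1 became 4 without the low-count filter, 2 with a stricter filter, the replicate block, the sex term or without the 3 libraries, 6 with DESeq2 and 7 with voom, and 1 to 5 with 1 left out. The cause of these shifts was not tested, beyond fewer samples entering some fits. Median fold changes moved by less than the SD between mice of one genotype in the mean log2 CPM of the list. That SD was 0.2151 for S phase and 0.3824 for mitosis genes, and it is not a spread of the medians themselves. The median of mitosis genes in the double knockout against WT ran from -0.27 to 0.11. In 1 of 19 alternative fits each, the S phase median in the Xbp1 knockout against WT (lowest -0.001) and the mitosis median in the MLKL triple knockout against WT (lowest -0.0216) changed sign. The numbers of the labels did not pair the samples, and 5 of 30 libraries correlated best with their own number. At 1 read for 0.232 CPM, Cdc6, Bub1 and Aurkb rest on few reads.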
